A study of Mus musculus with 6 samples.

Results

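The tRNAs that carry isoleucine were read from 6 small-RNA libraries of mouse brain, through the 6 cytosolic references whose names begin with Ile, out of 190 tRNA references listed in any library. The members were taken by name: 4 references have the anticodon AAT (Ile-AAT-1 to Ile-AAT-4) and 2 have TAT (Ile-TAT-1 and Ile-TAT-2), and mitochondrial references were left out. The study set 3 wild-type (WT) brains against 3 brains of TRMT1L knockout (KO) mice, described as biological triplicates. TRMT1L is a relative of the tRNA methyltransferase TRMT1. Both genotypes share the tissue and the library protocol, in which ribosomal RNA was depleted from total RNA and fragments of 30 to 150 bp were kept. Strain, age, the deleted allele and the deletion's reach across cell types are not given in the sources used here. The TRMT1L transcript was not analysed here, so nothing below checks the genotype. Whole brain mixes cell types, and a change in cell make-up and a change within cells cannot be told apart. The p-values measure the spread between these libraries.

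Isoleucine is encoded by the codons AUU, AUC and AUA. A tRNA with the anticodon AAU reads the first of these and, once the adenosine at the wobble position 34 has been deaminated to inosine by the ADAT enzyme complex, pairs with all of them, while the rarer tRNA with the anticodon UAU serves AUA. Inosine pairs with cytosine, so reverse transcriptase copies it as if it were G, and the share of reads with G where the gene has A is a direct trace of the edited base. Other modified bases leave other traces: dimethylguanosine at position 26, placed by TRMT1, and methyladenosine at position 58 can halt the enzyme or make it misread, whereas threonylcarbamoyl adenosine at position 37 next to the anticodon is usually read as A.

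The reference bases are shown for Ile-TAT-1, the AUA reader, because its listed stretch begins inside the anticodon and so bears on where its reads start. Capitals mark the last 2 bases of the anticodon, with T for U.
Ile-TAT-1: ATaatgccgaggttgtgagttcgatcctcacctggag
The first base shown is reference position 36, and the stretch ends at reference position 72. The deposited tables list only positions with at least 30 reads in a library. Positions in the text follow the canonical tRNA numbering, counted from the 5′ end of the mature tRNA, which runs 1 behind the reference from position 21 on. Over 66 shared positions Ile-AAT-1 and Ile-AAT-3 differed at 1 (C25T, the base of Ile-AAT-1 first). Ile-AAT-1 and Ile-AAT-2 differed at 3 of 60 (G26A, G49A and C67T), so that Ile-AAT-2 lacks the guanosine at position 26. Ile-AAT-4 was listed over 26 positions and had the same counts as Ile-AAT-2 at all 39 places where a library listed both, so it was not counted again. Ile-TAT-2 had the same bases as Ile-TAT-1 over the 22 positions shared.

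Most reads of the isoleucine family came from Ile-AAT-1 and Ile-AAT-3. The highest number of reads over any position of Ile-AAT-1 was 360, 3193 and 230 in WT replicates 1, 2 and 3, and 415, 422 and 451 in KO replicates 1, 2 and 3. For Ile-AAT-3 these were 353, 612 and 224 in WT and 404, 393 and 447 in KO. WT replicate 2 was the highest library on both references, and the other 5 lay between 224 and 451 reads. Ile-AAT-2 reached 816 reads in WT replicate 2, 35 in KO replicate 1 and 31 in KO replicate 2, and was under 30 elsewhere. The TAT references were sparse: Ile-TAT-1 reached 32 to 43 reads in the 4 libraries that listed it, and Ile-TAT-2 reached 31 to 57 in the 4 that listed it. The libraries held 6151209 to 8797395 base calls over all references. The Ile references took 0.297%, 2.11% and 0.198% of them in WT, and 0.301%, 0.301% and 0.276% in KO.

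**Figure D1:**
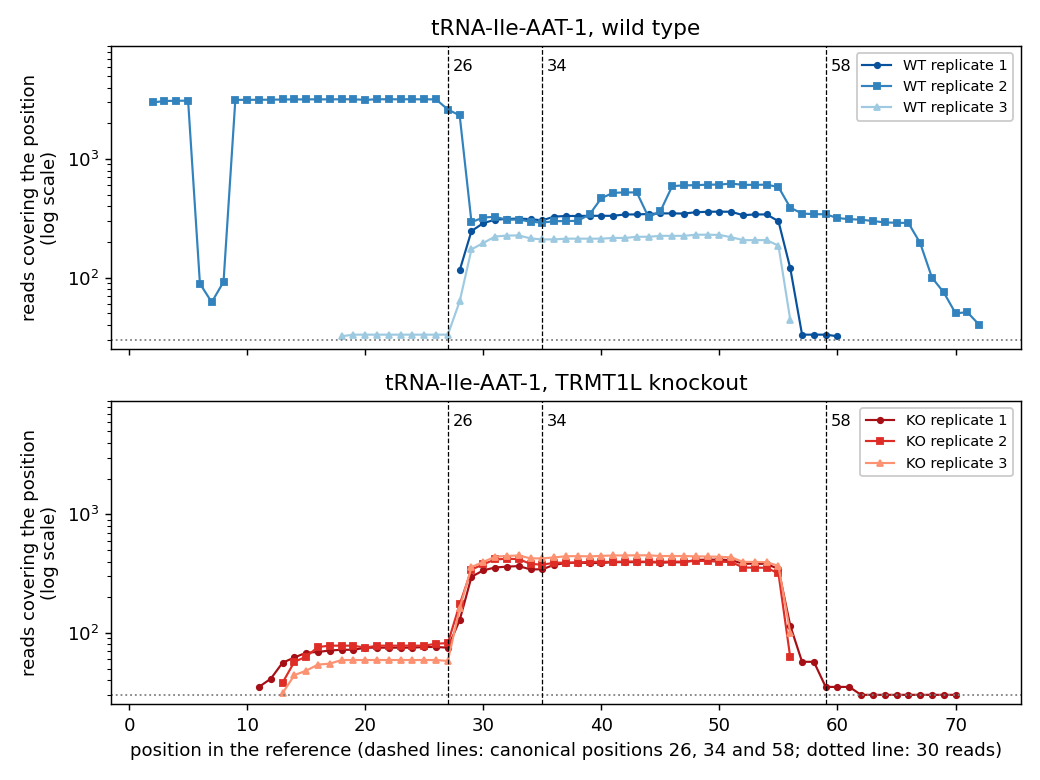
Reads covering each reference position of Ile-AAT-1 (vertical axis, log scale) in the 3 WT libraries (top) and 3 KO libraries (bottom), with dashed lines at canonical positions 26, 34 and 58 and a dotted line at 30 reads, the lowest coverage listed. In 5 libraries most reads lie between positions 28 and 54, while WT replicate 2 alone rises to 3193 reads in the 5′ part, with a gap at positions 6 to 8.

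WT replicate 2 stood apart on the isoleucine references, and it is taken up before the results that rest on it. On Ile-AAT-1 its coverage was at least 5 times that of the next library at 35 of 71 listed positions, and 11 positions were listed in no other library. It had 2990 reads beginning at position 2, and coverage of 3104 at position 5, 89, 62 and 92 at positions 6, 7 and 8, and 3158 at position 9. At position 26, 2176 of its 2615 reads (83.2%) carried an inserted base, against at most 6.06% in the other libraries that listed the position. Its coverage fell from 2337 reads at position 27, where the median base quality was 16, to 294 at position 28. Further along, position 59 was read as another base in 73.0% of calls on Ile-AAT-1 and 81.4% on Ile-AAT-2, against 0% on Ile-AAT-1 in WT replicate 1 and KO replicate 1, the only others to list it. It also had 213 reads that began at positions 38 to 40, against 1 to 13 in the other libraries. Ile-AAT-2 was listed at 57 positions in this library, 44 of them in no other. Ile-TAT-1 differed from its reference there too, at 20 of 33 calls at position 42 and 27 of 43 at position 48. Over all references this library also had the most positions with insertions in at least 10% of reads, 38 against 11 to 20, and with at least 10% mismatched calls, 186 against 68 to 141. The source of these reads was not tested. At positions 28 to 37 its coverage was in the range of the other libraries.

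Adenosine 34 of the AAT tRNAs was read mostly as G in every library of both genotypes. On Ile-AAT-1, G made up 92.4% (281 of 304 calls), 89.0% (259 of 291) and 83.3% (175 of 210) in WT, and 87.2% (300 of 344), 82.7% (311 of 376) and 82.4% (350 of 425) in KO. All other calls were A, the genomic base, with no C or T in any library. On Ile-AAT-3 the share of G was 94.6%, 92.2% and 88.4% in WT and 91.0%, 87.8% and 86.7% in KO. The genotypes overlapped on both references, since WT replicate 3 lay below KO replicate 1. The 95% Wilson intervals of single libraries on Ile-AAT-1 ran from 77.7% to 87.8% in WT replicate 3 and from 88.9% to 94.9% in WT replicate 1, so libraries of 1 genotype differed by more than counting error. Such intervals, here and elsewhere, cover counting error only, because the reads carry no molecular identifiers. The other 2 AAT references had no library with 30 reads over position 34.

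The knockout mean was lower by a few percentage points, a difference that did not pass the test. For Ile-AAT-1 the mean was 88.3% ± 4.60 (SD, n = 3) in WT and 84.1% ± 2.71 (SD, n = 3) in KO, and the adjusted p was 0.558 in a quasi-binomial model with limma's variance moderation over all mismatch sites. For Ile-AAT-3 the means were 91.7% ± 3.11 and 88.5% ± 2.20, with the same model's adjusted p again 0.558. Averaged over the 2 references, G was 93.5%, 90.6% and 85.9% in WT and 89.1%, 85.3% and 84.5% in KO, a KO-minus-WT difference of -3.70 percentage points (exact two-sided permutation test, p = 0.2, where 0.1 is the smallest p that 3 against 3 libraries allow). The difference was -3.41 without WT replicate 2, -1.94 without WT replicate 1 and -5.76 without WT replicate 3. In the quasi-binomial model, 0 of 5 tested mismatch sites on the Ile references passed and 0 had an unadjusted p under 0.05. With limma on arcsine-transformed shares 0 were also called. Positions tested on both references rest largely on the same reads, so these sites are not independent. WT and KO overlapped at all 5 sites, whereas they did not at 3.47% of all mismatch sites tested. Over all references 0 of 144 mismatch sites were called, that is 0%, and 4.86% had an unadjusted p under 0.05.

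**Figure D2:**
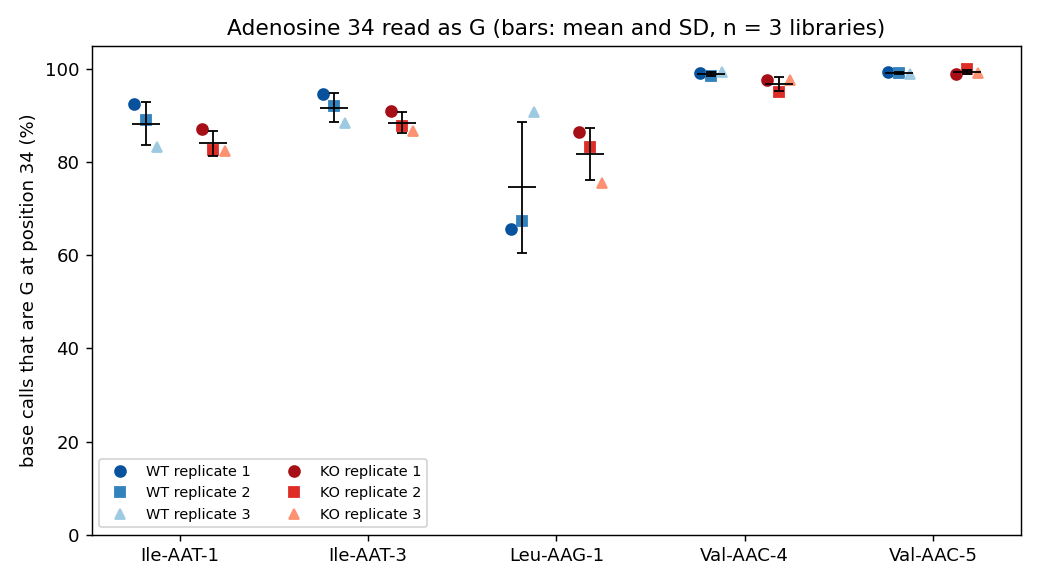
Share of base calls that are G at adenosine 34 (vertical axis, percent) for the 2 Ile-AAT references and the 3 references of other families with position 34 listed in all 6 libraries, 1 point per library, with the mean and SD of each genotype (n = 3). The Ile-AAT points lie between 82.4% and 94.6% with WT and KO overlapping, below the Val-AAC points and within or above the range of Leu-AAG-1.

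Another 7 anticodon families in these tables have a genomic adenosine at position 34, with 28 references between them. Position 34 was listed in a library for 10 of these references and in all 6 libraries for 3. The valine references had a larger share of G than isoleucine: Val-AAC-4 ranged from 95.2% to 99.3% with a median of 98.1%, and Val-AAC-5 from 99.0% to 100%, with a median of 99.2%. Leu-AAG-1 ranged more widely, from 65.6% to 90.9% with a median of 79.5%, over 32 to 133 calls. The medians of Ile-AAT-1 and Ile-AAT-3 over the 6 libraries, 85.3% and 89.7%, lay between those of Leu-AAG-1 and the valine references. Leu-AAG-2 was listed in fewer libraries, with 75.0% and 94.2% in WT replicates 1 and 3. In KO replicates 1 and 2 it had 75.7% and 78.8%, and Leu-AAG-3 had the same counts. The alanine and arginine references gave lower shares where they were listed, over few calls. Ala-AGC-1 had 0% of 72 calls in WT replicate 2 and 3.09% of 97 in KO replicate 1. Ala-AGC-4 had 37.2% of 43 calls in KO replicate 1. Arg-ACG-3 had 0% to 8.57% over 31 to 57 calls, and Arg-ACG-1 had 9.38% of 32 calls in KO replicate 1. These are descriptions, and differences between families were not tested.

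The share of G also differed between reads assigned to the 2 isoleucine references. Reads that begin at position 27 or later do not cover position 25. Among the positions listed for both, this was the only base that differed between Ile-AAT-1 and Ile-AAT-3. The numbers of reads beginning at each of positions 27 to 39 were equal on both references in 78 of 78 pairs of library and position, so the values of the 2 references are not independent. Ile-AAT-1 had 24, 67 and 30 more reads than Ile-AAT-3 at position 28 in WT, and 55, 69 and 44 more in KO. At position 34 the surplus had shrunk to 7, 10 and 11 reads in WT and 23, 14 and 11 in KO. Counted by base at position 34, Ile-AAT-1 had 7, 10 and 12 more A calls than Ile-AAT-3 in WT, and 15, 21 and 20 more in KO, so the surplus of A was positive in 6 of 6 libraries. For G the surplus was 0, 0 and -1 in WT and 8, -7 and -9 in KO. The net surplus of Ile-AAT-1 thus held more A than G in 6 of 6 libraries, where G was the main call on each reference. The KO libraries, which were the deeper ones, had the larger counts of A. As a share of the calls on Ile-AAT-1 at position 34, the A surplus was 2.30%, 3.44% and 5.71% in WT and 4.36%, 5.59% and 4.71% in KO, so that the genotypes overlapped and WT replicate 3 was the highest.

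**Figure D3:**
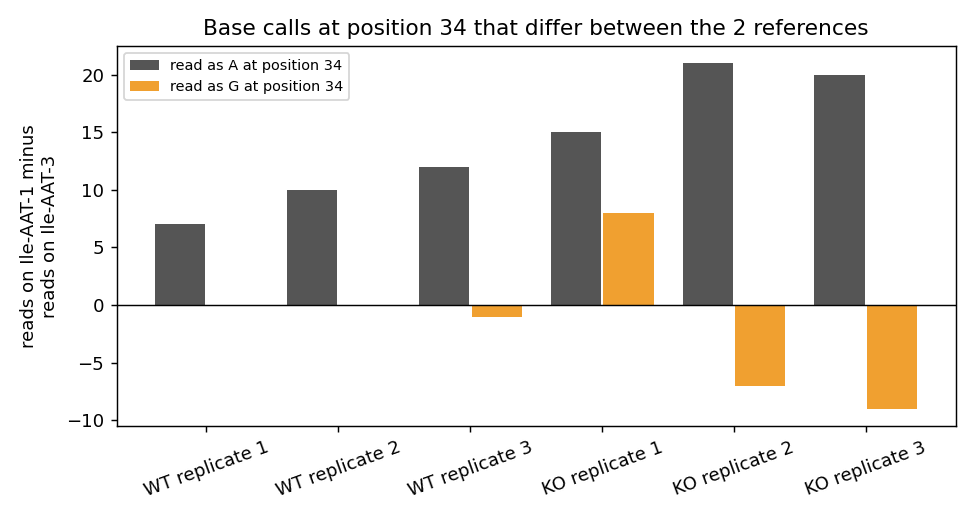
Calls on Ile-AAT-1 minus calls on Ile-AAT-3 at position 34 (vertical axis, reads), split into A and G, for each of the 6 libraries. The A bars are positive throughout, 7 to 12 in WT and 15 to 21 in KO, while the G bars lie between -9 and 8.

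Read starts on the AAT tRNAs piled up just 3′ of guanosine 26. A read can begin inside a tRNA where reverse transcription ended or at the 5′ end of an RNA fragment, which these counts do not tell apart. On Ile-AAT-3, 91, 84 and 30 reads began at position 27 in WT, and 61, 92 and 103 in KO. At position 28 the numbers were 132, 143 and 112 in WT and 171, 169 and 198 in KO. Positions 29 and 30 added 21 to 40 and 15 to 41 reads. Starts at positions 27 to 30 came to 95.2%, 98.2% and 95.9% of the reads over position 31 in WT, and to 94.8%, 94.7% and 94.8% in KO. Nearly all reads over position 31 of this reference therefore began within 4 bases of position 26, in every library. The share depends on read assignment, since reads that cover position 25 count toward the reference whose base they carry. The WT mean was 96.4% ± 1.56 and the KO mean 94.7% ± 0.0731 (SD, n = 3 each), and the libraries did not overlap (p = 0.1 by exact permutation of the libraries, two-sided, which is the lowest value this design can reach). This sum was chosen after the values were seen, and the genotypes did not overlap at 13.6% of all single start sites tested.

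**Figure D4:**
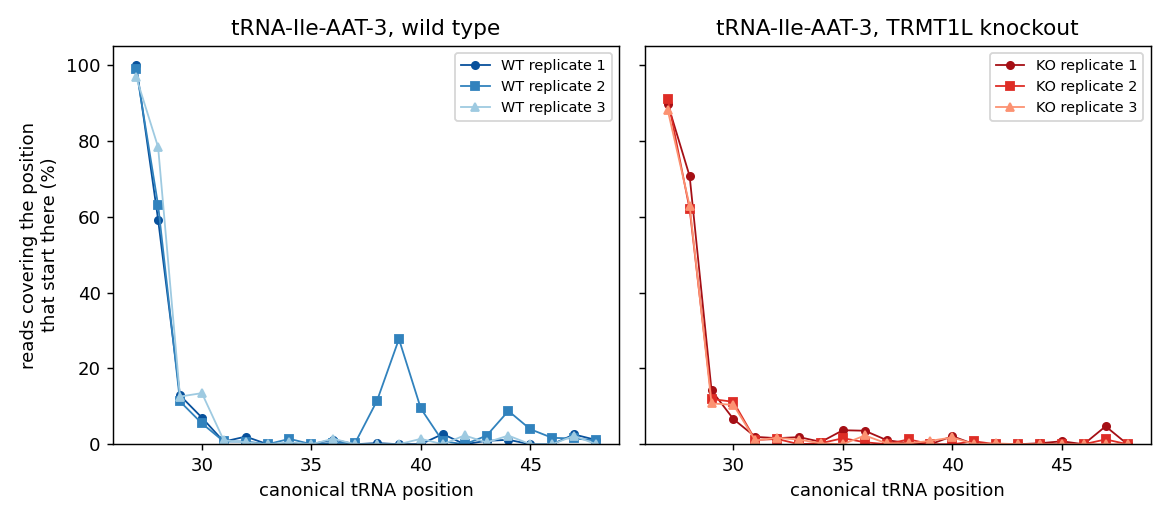
Share of the reads covering each canonical position of Ile-AAT-3 that begin there (vertical axis, percent), for positions 27 to 48, with WT left and KO right and 1 line per library. All 6 libraries have their high values at positions 27 and 28, and only WT replicate 2 has another rise at positions 38 to 40.

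In the model over all sites, no start position on the Ile references was called. At position 28 of Ile-AAT-3 the share of covering reads that began there was 66.8% ± 10.1 in WT and 65.1% ± 4.80 in KO (SD, n = 3), and on Ile-AAT-1 it was 55.6% ± 8.27 and 54.0% ± 4.19 (quasi-binomial model with limma's variance moderation, adjusted p = 1 for both). Of 23 tested start sites on the 2 references 0 passed and 2 had an unadjusted p under 0.05. The counts with limma on arcsine-transformed shares were the same, 0 and 2. Most positions were tested on both references, which share most of these reads, so the sites are not independent. Over all references 3 of 1092 sites were called, or 0.275%, and 7.78% had an unadjusted p under 0.05. Position 27 was under 100 reads on each reference in at least 1 library and entered only at a coverage minimum of 30, where 0 of 25 Ile sites were called and 3 had an unadjusted p under 0.05. Over all references at that minimum, 3 of 1782 sites were called, with 136 below 0.05 before adjustment. At position 27, 100%, 98.8% and 96.8% of the reads covering it on Ile-AAT-3 began there in WT. These were 91, 84 and 30 reads. The KO shares were 89.7%, 91.1% and 88.0% (61, 92 and 103 reads), without overlap (quasi-binomial model with limma's variance moderation, unadjusted p = 0.00523, adjusted p = 0.520). This share too depends on read assignment. The share of all sites without overlap was not taken at this minimum, and at 100 reads it was 13.6%. On Ile-AAT-1 the order was not the same: 79.1%, 3.59% and 47.6% in WT and 47.7%, 52.9% and 64.0% in KO, overlapping, with an adjusted p of 0.674 in the same limma-moderated model. The 2 sites in the test at 100 reads were position 44, in the variable loop, on each reference. There, on Ile-AAT-1, 1.15%, 8.54% and 2.22% of reads began in WT and 0.256%, 0% and 0% in KO. The genotypes did not overlap, which again compares with 13.6% of all start sites. The adjusted p was 0.599 in the quasi-binomial model with limma's variance moderation. Without WT replicate 2, which had the high value, position 44 fell under the minimum rate for testing.

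The pile of starts at positions 27 and 28 was large for a tRNA in these libraries. Averaged over the 6 libraries, starts there came to 67.0% of the coverage at position 31 on Ile-AAT-1 and 75.8% on Ile-AAT-3. Among 51 other cytosolic references with at least 100 reads there and below the depth limit, the same share was at most 10.5%, on Gln-CTG-4. The 13 of them with a G at position 26 ranged from 0% to 8.16%, with a median of 0.141%. Where coverage was under 30 reads, no starts were counted, so the shares of these 51 references may be too low. No p is given, because the references share libraries and reads.

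Some reads on Ile-AAT-1 did extend past guanosine 26, and nearly all of these had the genomic base there. Outside WT replicate 2, coverage at position 26 was under 30 and 33 reads in WT, and 75, 82 and 58 in KO. As a share of the coverage at position 32 this was at most 9.21% in WT replicate 1 and 14.5% in WT replicate 3, and 20.5%, 19.6% and 12.9% in KO, so the KO range held the value of WT replicate 3. The KO mean was 17.7% ± 4.15 (SD, n = 3). In WT replicate 2 coverage at position 26 was 846% of that at position 32, which carries the reads described above. No test was made across the genotypes, because 1 WT library was under the listing minimum and another held those reads. Of the calls at position 26, 0 of 2615 and 0 of 33 were mismatched in WT replicates 2 and 3. In KO the mismatched calls were 3 of 72 (4.17%, 95% Wilson interval 1.43% to 11.5%), 0 of 82 and 0 of 57. A count of 0 in 33 calls allows a share of up to 9.09%, taken as 3 counts over the total (the 95% Wilson upper limit is 10.4%). Ile-AAT-2, with A at position 26, had 0 mismatches in 44 calls in WT replicate 2 and 31 in KO replicate 1. A read of Ile-AAT-1 with A at position 26 could be assigned to Ile-AAT-2 or Ile-AAT-4, which have A there. The mismatch shares on Ile-AAT-1 would then miss it.

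Adenosine 37 was read as A almost throughout. On Ile-AAT-1, 0 calls were mismatched in 5 libraries, over 213 to 444 calls each, and 2 of 392 (0.510%) were mismatched in KO replicate 2. Ile-AAT-3 gave 2 of 379 in that library and 0 elsewhere. By the same 3 counts, 0 allowed a share of up to 0.676% in KO replicate 3 and 1.41% in WT replicate 3 on Ile-AAT-1, and the Wilson upper limits were 0.858% and 1.77%. The difference between the genotypes, 0.173 percentage points, was not detectable at this depth (exact two-sided permutation test, p = 1). On the TAT references position 37 had 0 mismatches in 35 to 43 calls in KO replicates 1 and 2.

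Adenosine 58 was reached by few reads. On Ile-AAT-1 it was listed in 3 libraries, where 2 of 33 calls (6.06%) in WT replicate 1, 11 of 342 (3.22%) in WT replicate 2 and 4 of 35 (11.4%) in KO replicate 1 were another base. Ile-AAT-3 had the same mismatch counts, and Ile-AAT-2 had 1 of 815 (0.123%) in WT replicate 2. Ile-TAT-1 had 0 of 32 in that library. The WT replicate 2 values on the AAT references come from the reads of which 73.0% to 81.4% differ from the reference at position 59, so only WT replicate 1 and KO replicate 1 give values free of them. With no value in WT replicate 3 and KO replicates 2 and 3, the genotypes could not be compared there.

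Coverage of Ile-AAT-1 ended abruptly 5′ of position 58. On Ile-AAT-1 it was 341, 608 and 207 reads at position 53 in WT and 382, 354 and 395 in KO. At position 56 it was 33, 347 and under 30 in WT, and 57, under 30 and under 30 in KO. The loss over these 3 bases was 90.3% in WT replicate 1, 42.9% in WT replicate 2 and at least 86.0% in WT replicate 3, and 85.1%, at least 91.8% and at least 92.7% in KO. WT replicate 2 kept the most reads, and the rest of both genotypes lay together. The median base quality also fell in the 5 other libraries, from 40 at position 53 to 29 at position 54. Ile-AAT-2 showed no such edge in WT replicate 2, the only library that listed it there, with 816 reads at position 53, 816 at position 56 and 807 at position 64. Read starts cannot mark this edge, since the tables do not count 3′ ends of reads.

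The ratio of coverage 5′ and 3′ of the anticodon took different values on the 2 main AAT references, whose listed stretches also differed. On Ile-AAT-1 the log2 ratio of median coverage, 5′ over 3′, was -0.13, 3.21 and -2.71 in WT and -2.35, -2.35 and -2.91 in KO. On Ile-AAT-3 it was -0.22, -2.45 and -0.12 in WT and -0.27, -0.14 and -0.15 in KO. WT replicate 2 thus lay above all other libraries on the first reference and under them on the second. The medians run over listed positions. These begin at position 27 on Ile-AAT-3 in 5 libraries and on Ile-AAT-1 in WT replicate 1. In these cases the 5′ medians cover only the stretch next to the anticodon. In most libraries the ratios of the 2 references therefore cover unlike stretches, and the means below mix them. In WT replicate 1, where both begin at position 27, the ratios were -0.13 and -0.22. Averaged over both references, the means were -0.40 ± 0.92 in WT and -1.36 ± 0.15 in KO (SD, n = 3), a difference of -0.96 (exact two-sided permutation test, p = 0.3), which was -0.57 without WT replicate 2 and -0.21 from the highest coverage of each part.

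The amount of tRNA-Ile-AAT did not pass the test between the genotypes. From the highest coverage of each reference, the log2 fold change (KO over WT) was -2.05 (SE 0.829) for Ile-AAT-1 and -0.42 (SE 0.326) for Ile-AAT-3, with adjusted p-values of 0.121 and 0.423 in edgeR's quasi-likelihood test. Of 145 references tested 33 were called, or 22.8%, and 0 of the 2 Ile references among them, 1 of which had an unadjusted p under 0.05. DESeq2 called 0 of the 2 and gave no adjusted p for Ile-AAT-1. Both values rested on WT replicate 2: without it the log2 fold changes were 0.060 and 0.041 (edgeR, adjusted p = 0.911 and 0.932). Without WT replicate 3, Ile-AAT-1 was called, at -2.54 (edgeR, adjusted p = 0.00338), among 41 of 145 references called. With upper-quartile scaling, which moved the median of all references to -0.49, both were called, at -2.48 and -0.90 (edgeR, adjusted p = 0.00701 and 0.0289), among 71 of 145 references called. Median coverage in place of the highest gave -0.89 and -0.02 (edgeR, adjusted p = 0.469 and 0.970), and the replicate number as a block gave -0.99 and -0.31 (edgeR, adjusted p = 0.298 and 0.480). From coverage at position 34 alone, which leaves out the 5′ reads of WT replicate 2, the values were -0.13 and -0.14 (edgeR, adjusted p = 0.722 for both).

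KO replicate 1 alone had a pair of further mismatches on the AAT tRNAs. At position 42 of Ile-AAT-1, 22 of 395 calls (5.57%) and at position 51, 22 of 383 (5.74%) were another base. The other libraries had 0 mismatched calls at both, except WT replicate 2 with 0.191% and 0.825%. Where these positions met the minimum rate for testing (position 51 on both references, position 42 on Ile-AAT-3), the adjusted p lay between 0.644 and 0.714 in the quasi-binomial model with limma's variance moderation.

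The TAT tRNAs were read over the 3′ side of the anticodon and the TΨC arm, and position 34 was under 30 reads in every library. Ile-TAT-1 was listed at 32 positions in WT replicate 2, 19 in WT replicate 3, 20 in KO replicate 1 and 22 in KO replicate 2. In KO replicate 2, 21 reads began at position 35 and 11 at position 36, of 43 reads over position 36, so most reads over that base began within the anticodon. In KO replicate 1, 6 reads began at position 36 and 7 at position 38, and in WT replicate 3, 9 began at position 38. The TAT references were not listed in every library, which the abundance test required, and with 57 reads at most they entered no main test. With that requirement and the filter on low counts off, their log2 fold changes were -0.20 and 1.71 (edgeR, adjusted p = 0.966 and 0.596). Libraries without a listing were counted there as having no reads, although each could hold any number under 30.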

How the data were processed

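Each library's deposited table gives, per position of a tRNA reference, counts made by the authors: coverage, calls of each base, read stops, insertions and deletions, with a median base quality (a deposited score). Per the submitters' processing notes GATK 3.5 was used, in a role not given; aligner and reference set are not given in the sources used here. Only positions with at least 30 reads are listed, and coverage reached at most about 8030, a depth limit that no Ile position approached. Listed stops were moved by 1 position, since 70.8% of 14749 rises in coverage then equalled the stop count, against 5.93% as listed.

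Positions with at least 100 reads in every library and a pooled rate of at least 1% were tested over all references with a quasi-binomial model moderated by limma 3.58.1 (R 4.3.3), with Benjamini-Hochberg adjustment at 0.05. Abundance was tested with edgeR 4.0.16 (TMM) on the highest coverage of each reference listed in all 6 libraries. DESeq2 1.42.0 was an alternative. Single values were compared by exact permutation over libraries in scipy 1.17.1. Libraries differed beyond sampling noise. The scripts were tested on simulated data. Named positions are 26, 34, 37 and 58 on every Ile reference, with others named where their values stood out. Members and lists were chosen with earlier results of these data known. No genome coordinates were used. The sequences of the AAT references are not reported here.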

Additional observations from a re-analysis of the deposited data

How the results depend on the processing

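The wobble difference ranged from -1.94 (without WT replicate 1) to -5.76 (without WT replicate 3) with 1 library left out. It was -3.71 with pooled reads. A coverage minimum of 30, every copy counted and the replicate block left it at -3.70, since they used the same 2 references and the same libraries. The log2 5′ to 3′ difference ranged from -0.57 to -1.46 with 1 library left out and was -1.09 with unlisted positions counted as 29 reads. The KO share passing position 26 was 18.0% over the coverage at position 30. Position 37 differed by 0 to 0.259 percentage points. Stop calls over all references went from 3 to 0 at a pooled rate of 5%, to 0 without sites at the depth limit and to 0 to 3 with 1 library left out. Deletion calls went from 0 (8 of 60 at an unadjusted p under 0.05) to 1 at a coverage of 500, 1 at a rate of 5% and 0 to 2 with 1 library left out. Abundance calls went from 33 to 71 with upper-quartile scaling, 13 from median coverage, 20 without references at the depth limit and 24 to 41 with 1 library left out. With the replicate number as a block (replicate block), 0 mismatch, 4 stop and 0 deletion sites and 35 references were called, and the exact p was 0.25 for the wobble and 5′ to 3′ differences and 1 for position 37. Same-numbered libraries did not deviate together (correlations from -0.110 to 0.0972). The KO-minus-WT difference in starts changed sign with 1 library left out at canonical positions 28, 29, 30, 40 and 47: the ranges in percentage points were -5.04 to 3.01, -0.86 to 0.53, -0.99 to 2.56, -4.05 to 0.57 and -1.45 to 0.85 on Ile-AAT-1, and -5.52 to 4.05, -0.90 to 0.81, -0.85 to 3.14, -4.13 to 0.59 and -1.47 to 0.89 on Ile-AAT-3. With 1 library left out, the log2 abundance changes of Ile-AAT-1 and Ile-AAT-3 ranged from -2.54 to 0.060 and from -0.71 to 0.041, the upper ends without WT replicate 2. The causes were not tested. The read-through measure and coverage at position 34 as a measure of abundance were chosen after seeing the data. Positions 26 and 58 had no value at 100 reads in every library, and a minimum of 500 left no Ile site. Limits: depth at position 34 was 199 to 425 calls, so differences of a few percentage points are near counting error, and 3 libraries a genotype allow no permutation p under 0.1.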
